A study of Homo sapiens with 6 samples.

Results

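Epithelial-mesenchymal transition (EMT) was followed through 10 genes: the transcription factors SNAI1, SNAI2, ZEB1, ZEB2 and TWIST1 that drive it, the epithelial regulators ESRP1, ESRP2 and GRHL2, and CD44 and FN1, whose pre-mRNAs are spliced differently in epithelial and mesenchymal cells. The genes were chosen by name, as the rows whose Entrez identifier maps to one of these symbols, and all 10 were found among the 18030 genes of the deposited tables. CD44 was represented by 16 transcripts and FN1 by 28, so the 2 genes together gave 44 of 80668 transcripts.

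The cells were Huh-7, an established line from a human liver carcinoma, and there were 3 libraries in each of 2 groups. The oeALKBH5 cells carried an ALKBH5 overexpression plasmid, introduced by electroporation 60 h before RNA was taken, and the control cells are labelled WT. ALKBH5 erases N6-methyladenosine, the most common internal mark of mRNA. The control entries carry the same transfection protocol as the oeALKBH5 entries, but the design text calls the comparison cells parental. Whether the controls were pulsed, or given an empty plasmid, is therefore not stated in the labels. The sources used here give neither the promoter of the plasmid nor the share of cells that took it up. The libraries are numbered as biological replicates without naming separate cultures, so p-values reflect only how these samples vary, and that variation may be technical.

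In EMT, cells of an epithelium lose their junctions and polarity and gain motility, and Snail, ZEB and Twist proteins are the repressors and activators at the head of that programme. They bind E-box motifs in the promoters of epithelial genes such as CDH1, while GRHL2 keeps those genes active and represses ZEB1. ESRP1 and ESRP2 are epithelial RNA-binding proteins that promote the variable exons of CD44, a hyaluronan receptor, and ZEB1 represses ESRP1, so that mesenchymal cells use the standard form of CD44 in which the variable exons are skipped. Hepatocytes secrete plasma fibronectin, which lacks the extra domains EDA and EDB, whereas transformed and mesenchymal cells include these exons in FN1 mRNA.

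The exons behind the isoform values are shown here because the shares of CD44 and FN1 transcripts rest on them. Sequences were taken from GENCODE release 29 on GRCh38 and are written 5′ to 3′ on the strand of the gene. Capitals in the whole exons mark GAAGAAGA, a purine-rich enhancer of splicing known from EDA, searched on the strand of the gene alone. CD44 v9 lies at chr11:35209965-35210054 and v10 at chr11:35211246-35211449, both on the plus strand, and EDA lies at chr2:215380811-215381080 on the minus strand.
CD44 v9: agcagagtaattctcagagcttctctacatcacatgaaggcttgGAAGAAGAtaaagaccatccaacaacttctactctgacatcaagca
CD44 v10: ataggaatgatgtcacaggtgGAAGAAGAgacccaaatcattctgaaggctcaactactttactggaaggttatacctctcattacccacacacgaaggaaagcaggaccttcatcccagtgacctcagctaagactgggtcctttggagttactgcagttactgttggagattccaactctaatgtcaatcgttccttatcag
FN1 EDA: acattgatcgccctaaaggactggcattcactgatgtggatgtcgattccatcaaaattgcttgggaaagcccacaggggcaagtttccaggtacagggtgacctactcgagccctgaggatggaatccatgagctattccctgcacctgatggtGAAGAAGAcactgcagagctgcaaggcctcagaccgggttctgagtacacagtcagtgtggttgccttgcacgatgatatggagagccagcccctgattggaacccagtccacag

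The motif starts at base 45 of v9, at base 22 of v10 and at base 156 of EDA. It was found in neither CD44 v8 (chr11:35208105-35208206) nor EDB (chr2:215392931-215393203). It was also counted in annotated internal exons of similar length in protein-coding transcripts. There it occurred in 1.74% of those with 80 to 100 bases and 3.23% of those with 190 to 220 bases. Among those with 250 to 300 bases the share was 3.15%. These matches describe letters in the exons and say nothing of factor binding in these cells.

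The exon choice itself is carried by the splice junctions, where the first exon stays the same and the exon that follows it changes. Capitals mark the first 20 bases of that second exon.
CD44 standard: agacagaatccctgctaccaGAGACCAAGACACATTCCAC
CD44 into v8: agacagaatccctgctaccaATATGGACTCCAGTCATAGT
CD44 into v10: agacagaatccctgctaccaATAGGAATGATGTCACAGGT
FN1 EDA included: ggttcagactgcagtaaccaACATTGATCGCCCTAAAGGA
FN1 EDA skipped: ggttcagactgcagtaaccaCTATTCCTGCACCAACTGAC
FN1 EDB included: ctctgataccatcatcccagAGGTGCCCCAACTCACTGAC
FN1 EDB skipped: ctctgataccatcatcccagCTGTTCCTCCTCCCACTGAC

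The libraries held 18607084 to 18826479 estimated counts in oeALKBH5 and 19265686 to 19378030 in control. Counts were scaled to CPM by library sizes adjusted between libraries with TMM factors. ALKBH5 itself stood at 169, 133 and 110 CPM in oeALKBH5 libraries, against 70.5, 74.2 and 75.4 CPM in control libraries. Its fold change was 1.87 (log2 0.90, SE 0.177, edgeR adjusted p = 0.0154, but 0.0529 without control replicate 2 and 0.0590 without control replicate 3). The level was highest in oeALKBH5 replicate 1. Pairs of oeALKBH5 libraries were less alike, at a chi-square of 3.14 to 7.5 per degree of freedom, than pairs of control libraries, at 1.66 to 2.36. Differential expression was wide: 42.8% of the 14168 genes tested passed edgeR's quasi-likelihood test at a Benjamini-Hochberg adjusted p under 0.05, 20.8% higher and 22.0% lower, with a median absolute log2 fold change of 0.30. With library size alone as the scaling, 4264 genes were higher and 2051 lower, in place of 2948 and 3114. All 10 hepatocyte markers were expressed and fell in oeALKBH5 cells, with a summed level of 22767 to 24492 CPM in oeALKBH5 and 34707 to 35364 CPM in control libraries. HNF4A, which also stands among the epithelial transcription factors counted below, fell least (log2 fold change -0.12, SE 0.042, edgeR adjusted p = 0.0298).

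Of the 10 EMT genes, ZEB1 and CD44 were higher in oeALKBH5 cells and the other 5 that could be tested did not pass. The 2 that passed among 7 tested make a smaller share than the 42.8% of all genes. By the simpler criterion that the CPM values of the groups do not overlap, the same 2 genes stood apart, beside 52.8% of all tested genes. SNAI2, TWIST1 and GRHL2 were left out by the filter on low counts.

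Levels between genes were compared in FPKM, the authors' values scaled by transcript length and depth, and they spanned a wide range. FN1 led with 664 to 836 FPKM over the 6 libraries. ESRP2, SNAI1, CD44 and ZEB1 followed in that order, and the ranges of ESRP2 (15.1 to 18.8 FPKM) and SNAI1 (13.6 to 16.8 FPKM) overlapped while the others did not. ESRP1 reached 1 FPKM at most. GRHL2, SNAI2, ZEB2 and TWIST1 each had at most 0.15 FPKM and could not be ranked among themselves, since each overlapped its neighbour.

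**Figure D1:**
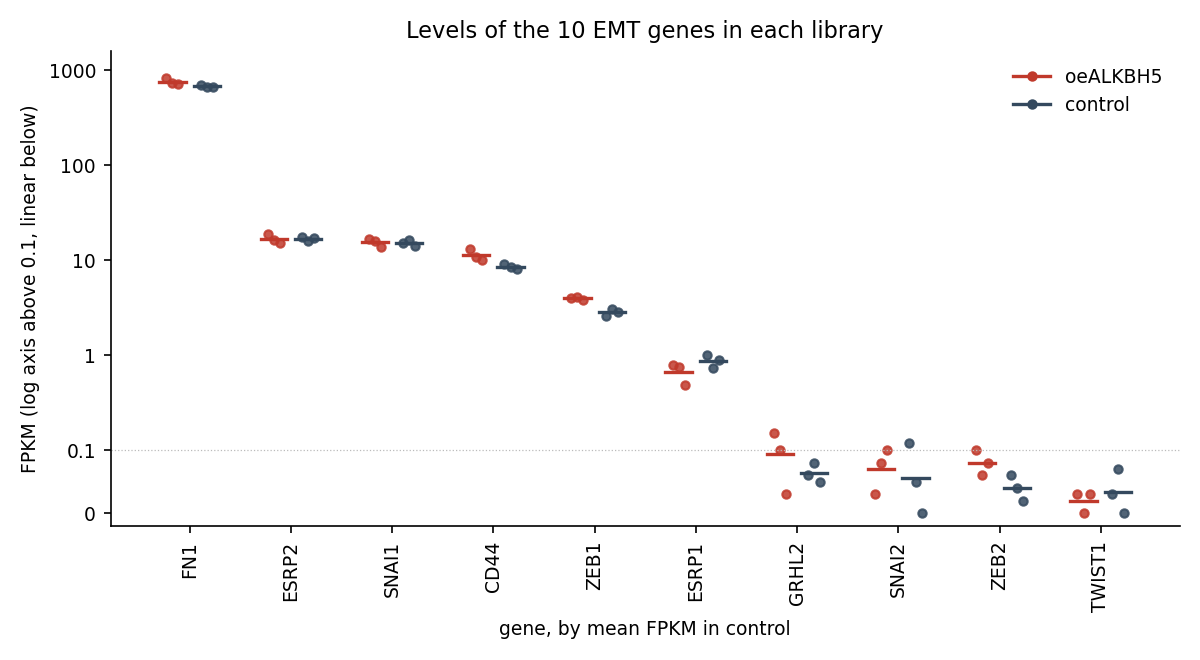
FPKM of the 10 EMT genes in each library, oeALKBH5 in red and control in dark blue, with points for libraries and bars for group means (the axis is logarithmic above 0.1 and linear below). FN1 had at least 664 FPKM in every library, and GRHL2, SNAI2, ZEB2 and TWIST1 lay at or below 0.15 FPKM.

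ZEB1, a zinc finger repressor of CDH1 and of ESRP1, was the EMT transcription factor that rose. The gene (Entrez 6935) spans chr10:31318495-31529814 on the plus strand. It had 4.02, 4.05 and 3.77 FPKM in oeALKBH5 libraries, against 2.56, 3.09 and 2.83 FPKM in control libraries. Every oeALKBH5 library lay above every control, and the oeALKBH5 values were close to each other. In CPM the level was 23.1 ± 1.005 in oeALKBH5 and 17.6 ± 1.66 in control (SD, n = 3 each), 1.31-fold higher with a 95% interval of 1.17 to 1.47 (log2 fold change 0.39, SE 0.0791, edgeR adjusted p = 4.73e-04). The FPKM values gave 0.37 on the log2(FPKM + 1) scale (SE 0.0719, limma adjusted p = 0.00168). Reads were divided among 43 ZEB1 transcripts, of which 5 had a value above 0 in every library, so single ZEB1 isoforms were not compared.

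ZEB2, the paralogue of ZEB1, was near the floor of detection. The gene (Entrez 9839) lies at chr2:144364364-144524583 on the minus strand, and it drew 17, 10 and 14 counts in oeALKBH5 libraries, against 11, 7 and 4 counts in control libraries. The groups overlapped, since oeALKBH5 replicate 2 lay below control replicate 1. Its fold change of 1.81 had a 95% interval of 1.01 to 3.24 and did not pass (log2 fold change 0.85, SE 0.403, edgeR adjusted p = 0.0940).

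SNAI1, which encodes Snail, did not differ beyond the spread of its libraries. The gene (Entrez 6615) lies at chr20:49982999-49988886 on the plus strand. It had 16.8, 16.0 and 13.6 FPKM in oeALKBH5 libraries, against 15.2, 16.3 and 14.1 FPKM in control libraries. The libraries of the groups were interleaved. The fold change was 0.962 with a 95% interval of 0.858 to 1.08 (log2 fold change -0.06, SE 0.0792, edgeR adjusted p = 0.604), and its sign changed with the scaling.

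SNAI2, which encodes Slug, and TWIST1 gave almost no reads. SNAI2 (Entrez 6591, chr8:48917604-48921740, minus strand) had 1, 3 and 4 counts in oeALKBH5 libraries, against 5, 2 and 0 in control libraries. TWIST1 (Entrez 7291, chr7:19020991-19117672, minus strand) had 1, 0 and 1 counts in oeALKBH5 libraries, against 1, 2 and 0 in control libraries. Neither gene could be compared at this depth, where a count of 0 allows up to 0.156 CPM in an oeALKBH5 library and 0.161 CPM in a control library. These limits cover counting error only.

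Among the epithelial regulators, ESRP2 carried most of the ESRP mRNA. The gene (Entrez 80004) lies at chr16:68229111-68238102 on the minus strand. It had 18.8, 16.4 and 15.1 FPKM in oeALKBH5 libraries, against 17.4, 15.9 and 17.2 FPKM in control libraries. Both the highest and the lowest value belonged to oeALKBH5 libraries, so the groups overlapped. ESRP2 did not pass (fold change 0.935, 95% interval 0.853 to 1.03, log2 fold change -0.10, SE 0.0634, edgeR adjusted p = 0.229). Without oeALKBH5 replicate 1 it did (log2 fold change -0.17, edgeR adjusted p = 0.00923), and on the FPKM scale its log2 difference was -0.01.

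ESRP1, the paralogue that ZEB1 represses in other epithelial cells, was scarce in Huh-7. The gene (Entrez 54845) lies at chr8:94641074-94707466 on the plus strand. It drew 52, 52 and 33 counts in oeALKBH5 libraries, against 70, 51 and 64 counts in control libraries. The lowest library was oeALKBH5 replicate 3 and the highest control replicate 1, but control replicate 2 lay below both other oeALKBH5 libraries. The fold change of 0.724 (95% interval 0.543 to 0.965) did not pass (log2 fold change -0.47, SE 0.199, edgeR adjusted p = 0.0648). The call depended on single libraries: the adjusted p was 0.0241 without oeALKBH5 replicate 1 and 0.0395 without control replicate 2, and ran up to 0.259 over the other alternatives. In these bulk samples fewer cells that express a gene and less RNA per cell cannot be told apart.

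GRHL2, the grainyhead-like activator of epithelial genes, was close to absent. The gene (Entrez 79977, chr8:101492432-101669726, plus strand) drew 11, 8 and 3 counts in oeALKBH5 libraries, against 5, 6 and 4 counts in control libraries. The groups overlapped and the gene was not tested.

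CD44, the hyaluronan receptor, rose at the gene level. The gene (Entrez 960) spans chr11:35138870-35232402 on the plus strand. It had 13.02, 10.82 and 10.15 FPKM in oeALKBH5 libraries, against 9.12, 8.47 and 8.10 FPKM in control libraries. Every oeALKBH5 library lay above every control, and oeALKBH5 replicate 1 was the highest. That library was also the highest for ALKBH5, and for SNAI1, ESRP2 and FN1, which did not pass in counts. A relation of CD44 to the ALKBH5 level was not tested. In CPM the level of CD44 was 39.8 ± 3.80 in oeALKBH5 and 31.9 ± 1.48 in control (SD, n = 3 each), 1.25-fold higher with a 95% interval of 1.13 to 1.38 (log2 fold change 0.32, SE 0.0701, edgeR adjusted p = 0.00106). On the FPKM scale the log2 difference was 0.36 (SE 0.0821, limma adjusted p = 0.00450). Without oeALKBH5 replicate 1 the log2 fold change was 0.24 and CD44 still passed.

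FN1, which encodes fibronectin, was the most abundant of these genes, and its change did not exceed the threshold in counts. The gene (Entrez 2335) lies at chr2:215360440-215436172 on the minus strand. It had 836, 726 and 712 FPKM in oeALKBH5 libraries, against 698, 664 and 669 FPKM in control libraries. In FPKM the groups did not overlap, with oeALKBH5 replicate 1 well above the rest. In CPM, after scaling between libraries, they did: 6576, 5724 and 5715 CPM in oeALKBH5 libraries, against 5904, 5548 and 5639 CPM in control libraries. The fold change was 1.05 with a 95% interval of 0.976 to 1.14 (log2 fold change 0.08, SE 0.0531, edgeR adjusted p = 0.262). Under library size scaling the log2 fold change was 0.16 and passed (edgeR adjusted p = 0.0181). On FPKM it passed narrowly (0.16, SE 0.0573, limma adjusted p = 0.0406). CD44 and ZEB1 passed there too, so that 3 of 5 genes passed beside 45.9% of the 12016 genes tested. Over all genes 3535 were higher and 1977 lower on FPKM. No further scaling between libraries was applied to FPKM, so FPKM and library size alone are not independent alternatives. That call of FN1 was lost without a filter on low values (adjusted p = 0.0876), without oeALKBH5 replicate 1 (adjusted p = 0.0770) and without each control library in turn (adjusted p = 0.0648 to 0.126).

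**Figure D2:**
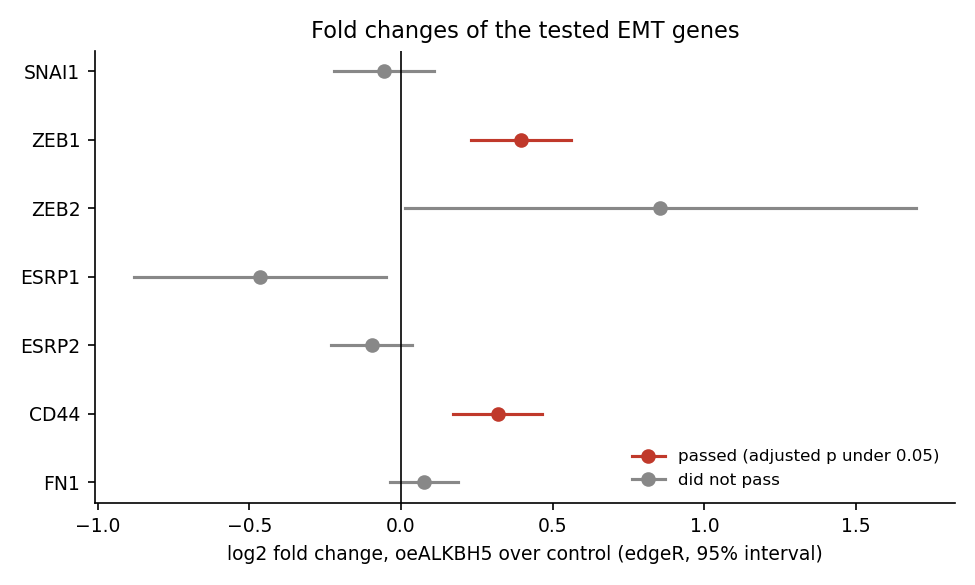
Log2 fold changes of the 7 tested EMT genes, oeALKBH5 over control, with edgeR's 95% intervals as lines; genes that passed are red and the others grey. ZEB1 (0.39) and CD44 (0.32) lay clear of 0, and the widest interval belonged to ZEB2, with 4 to 17 counts per library.

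CD44 isoforms were examined next, because the change from variable to standard CD44 is the splicing event most closely tied to the ESRP proteins. The standard transcript NM_001001391.2, in which all variable exons are skipped as in the first CD44 junction above, took 14.1%, 19.1% and 14.3% of CD44 FPKM in oeALKBH5 libraries, against 12.7%, 21.4% and 13.5% in control libraries. The means were the same, 15.9% ± 2.84 in oeALKBH5 and 15.9% ± 4.80 in control (SD, n = 3 each; exact two-sided permutation p = 1). In counts the standard transcript held 163 of 750 in oeALKBH5 replicate 2, a share of 21.8% with a Wilson 95% interval of 18.9% to 24.8%, and 149 of 636 in control replicate 2, a share of 23.4% with an interval of 20.3% to 26.9%. These intervals cover counting error only and not the division of reads among isoforms.

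The transcript with v8, v9 and v10, NM_001001390.2, was lower in share in every oeALKBH5 library. It took 9.52%, 0% and 6.70% of CD44 FPKM in oeALKBH5 libraries, against 10.3%, 11.1% and 15.4% in control libraries (exact permutation p = 0.1, the smallest that 3 against 3 libraries allow). The groups did not overlap, but oeALKBH5 replicate 1 lay close to the lowest control. The transcript with v10 alone, NM_001202555.2, took 11.7%, 13.9% and 0.296% in oeALKBH5 libraries, against 8.66%, 9.56% and 10.9% in control libraries. The oeALKBH5 group held both the highest and the lowest of these shares, whereas the control libraries lay close together. NM_001202556.2, annotated without variable exons, took 0.691%, 9.43% and 5.81% in oeALKBH5 libraries and was listed at 0 in the control libraries. By counting error alone, a count of 0 allows a share of up to 0.513%, 0.472% and 0.518% of CD44 counts in those control libraries. These limits do not cover the division of reads among isoforms, so a listed 0 does not bound the share of this transcript.

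Taking the 5 annotated full-length CD44 transcripts alone, the share with v10 was 56.2%, 29.01% and 22.98% in oeALKBH5 libraries, against 53.2%, 49.2% and 66.2% in control libraries (exact permutation p = 0.3). Replicate 1 of oeALKBH5 fell among the controls and replicates 2 and 3 lay below them. The mean difference of -20.1 percentage points ran from -30.2 without oeALKBH5 replicate 1 to -13.6 without oeALKBH5 replicate 3. No CD44 transcript that could be tested passed. Among the 11 tested, 0 passed as a level and 0 as a share of the gene by edgeR, and 0 had an unadjusted p under 0.05 in either test, beside 1.01% of 45502 transcripts called by level and 0.0655% of 41249 called by usage. Shares that did not overlap between the groups were found for 3 of the 16 CD44 transcripts and 2 of the 28 FN1 transcripts, beside 8.96% of the 73788 transcripts of genes with several transcripts. Among these, NM_001202556.2 and XM_011520487.3 of CD44 were listed at 0 in the control libraries. The filter on low counts left both out of the level and usage tests. Without that filter 0 CD44 or FN1 transcripts passed by level.

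The CD44 values were uneven between libraries, and of 16 transcripts 5 were above 0 in all of them. The 9 transcripts that held at least 5% in either group included 5 predicted ones, among them XM_011520489.3 with 15.9% ± 2.57 in oeALKBH5 and 15.2% ± 3.35 in control, and XM_006718390.4 with 7.81% ± 7.72 in oeALKBH5 and 14.2% ± 4.12 in control (SD, n = 3 each). The remaining 7 together took 16.4% ± 4.78 in oeALKBH5 and 6.62% ± 4.88 in control. The annotated transcripts covered 30.4% to 47.8% of CD44 FPKM, so the exon content of the rest was not read here.

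**Figure D3:**
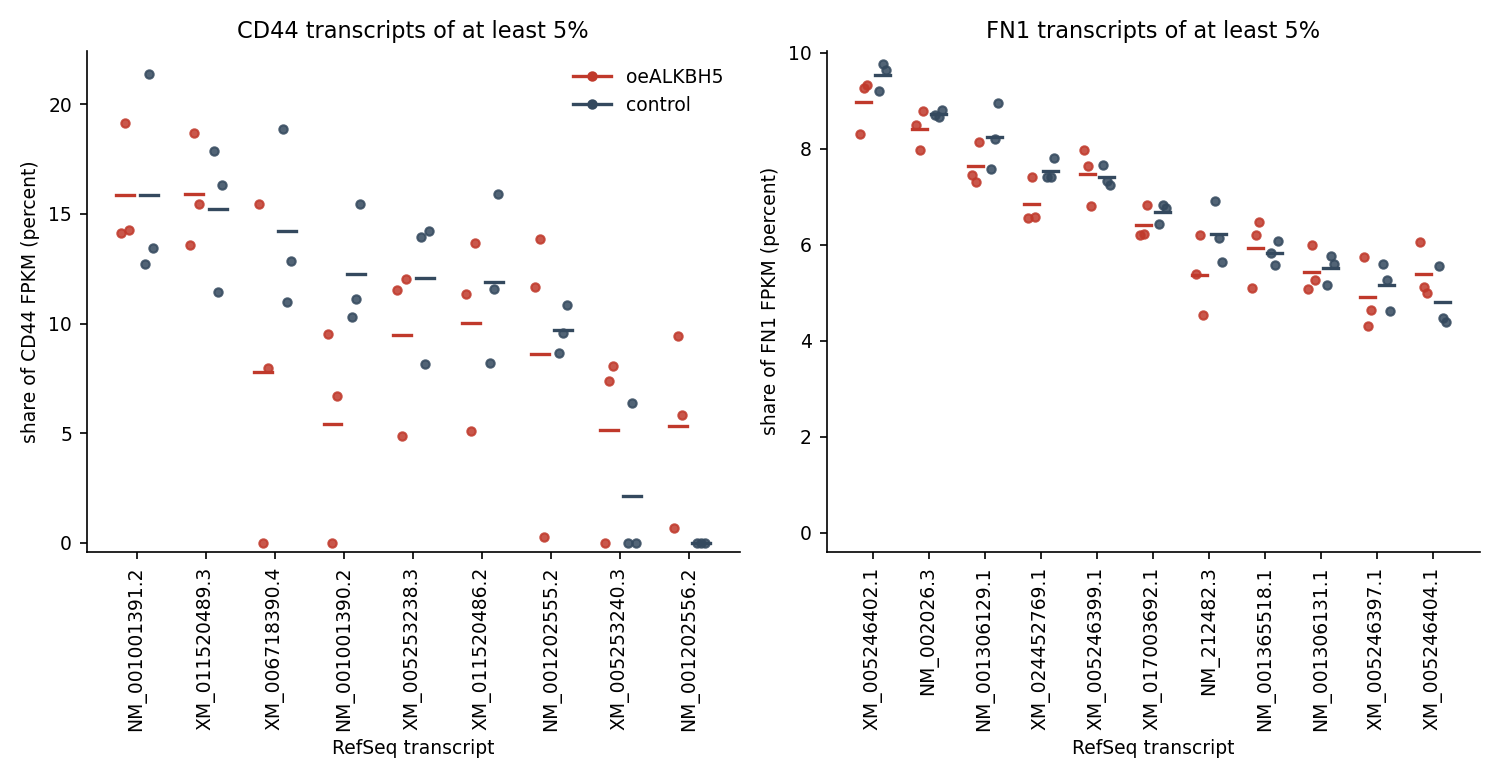
Share of the gene's FPKM held by each CD44 (left) and FN1 (right) transcript of at least 5% in either group, oeALKBH5 in red and control in dark blue, with points for libraries and bars for means. CD44 shares scattered widely, down to 0% in single libraries, whereas named FN1 transcripts had group means of 4.81% to 9.54% and differed by at most 0.856 percentage points.

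FN1 drew 105154 to 126583 counts per library, divided among its 28 transcripts. None of its 26 tested transcripts passed in level or in usage by edgeR. At an unadjusted p under 0.05 there was 1 in level, XM_017003695.1, and 2 in usage, NM_001306132.1 and XM_005246398.1, which were looked up after their values were seen. XM_017003695.1 took 3.06%, 2.34% and 1.94% of FN1 FPKM in oeALKBH5 libraries, against 0.907%, 1.51% and 1.66% in control libraries. Its groups did not overlap (log2 fold change 0.96, SE 0.310, edgeR adjusted p = 0.316), and it passed with DESeq2. NM_001306132.1, annotated with neither EDA nor EDB, took 0%, 1.43% and 0.418% in oeALKBH5 libraries, against 0%, 0.0964% and 0% in control libraries, and the groups overlapped at 0.

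The leading FN1 transcripts held steady shares. XM_005246402.1 was first, with 8.97% ± 0.574 in oeALKBH5 and 9.54% ± 0.294 in control. NM_002026.3, which carries EDA without EDB, followed with 8.42% ± 0.411 in oeALKBH5 and 8.73% ± 0.0733 in control. NM_001306129.1, which carries both, took 7.64% ± 0.440 in oeALKBH5 and 8.25% ± 0.687 in control (SD, n = 3 each). The libraries of the groups overlapped for each of these 3 transcripts. The 17 FN1 transcripts under 5% in both groups together took 27.2% ± 0.751 in oeALKBH5 and 24.3% ± 0.345 in control (SD, n = 3 each).

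Grouped by exon, most annotated full-length FN1 mRNA carried EDA. Over the 7 such transcripts the EDA share was 75.9%, 70.0% and 74.0% in oeALKBH5 libraries, against 76.4%, 76.3% and 76.5% in control libraries. The EDB share was 40.6%, 37.3% and 35.4% in oeALKBH5 libraries, against 41.6%, 40.7% and 41.3% in control libraries. In both cases each oeALKBH5 library lay below each control, with a mean difference of -3.09 percentage points for EDA and -3.43 for EDB. The test could not go below its smallest p of 0.1 (exact two-sided permutation test), and oeALKBH5 replicate 1 lay within 1 percentage point of the lowest control in both. Counting only transcripts of at least 5%, the mean differences were -1.06 and -2.00 percentage points. With 1 library left out at a time, the EDA difference ran from -4.41 to -1.45 percentage points, nearest to 0 without oeALKBH5 replicate 2, and the EDB difference from -4.85 to -2.25, nearest to 0 without oeALKBH5 replicate 3. The 8 annotated transcripts held 31.7% to 36.3% of FN1 FPKM, and the predicted transcripts outside them were not sorted by exon.

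**Figure D4:**
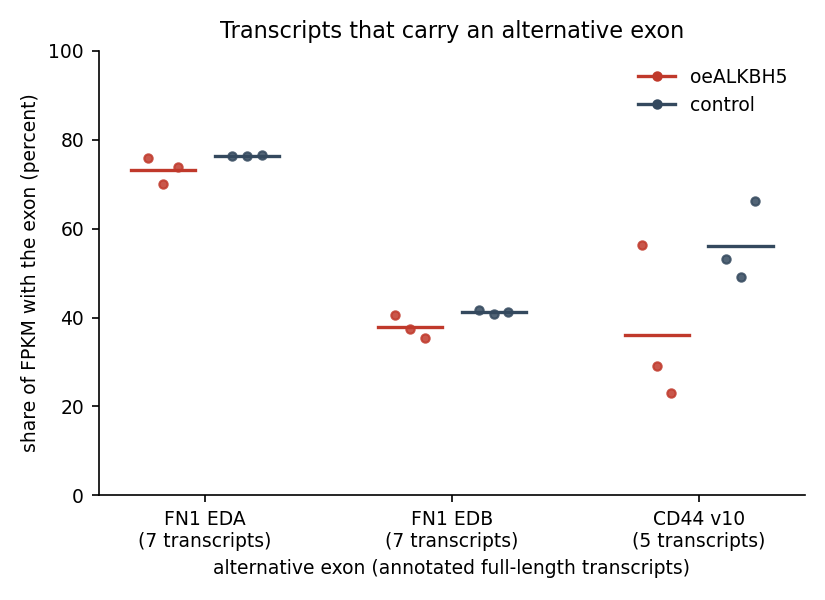
Share of FPKM with the exon, among annotated full-length transcripts: EDA and EDB in FN1 (7 transcripts) and v10 in CD44 (5 transcripts), oeALKBH5 left in red and control right in dark blue, with points for libraries and bars for means. The control libraries lay within 1 percentage point of each other for both FN1 exons, and the CD44 v10 share ran from 22.98% to 66.2%.

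Partners of these genes were counted in 9 lists, as the genes that passed in each direction beside 20.8% higher and 22.0% lower of all tested genes, whose median log2 fold change was 0.0062. The lists were drawn up knowing from earlier results of these data that mesenchymal genes rose and epithelial genes fell, so their counts are a description. The targets that ZEB and Snail proteins repress fell: 10 of 14 tested were lower and 0 higher, with a median log2 fold change of -0.41. EPCAM, an epithelial adhesion molecule, had 73.3 ± 4.005 CPM in oeALKBH5 and 144 ± 2.67 CPM in control (log2 fold change -0.98, SE 0.0505, edgeR adjusted p = 8.51e-12). The tight junction gene CLDN4 had 7.73 ± 0.583 CPM in oeALKBH5 and 15.0 ± 2.04 CPM in control (-0.95, SE 0.107, adjusted p = 7.52e-07). E-cadherin, CDH1, looked up after its value was seen, fell by less (-0.26, SE 0.0496, adjusted p = 3.51e-04).

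Mesenchymal markers showed the opposite, with 10 of 12 tested genes higher, 1 lower and a median log2 fold change of 0.83. The intermediate filament gene VIM had 179 ± 1.72 CPM in oeALKBH5 and 99.8 ± 4.55 CPM in control (log2 fold change 0.84, SE 0.0477, edgeR adjusted p = 3.33e-11), and the collagen gene COL1A2 had 12.8 ± 0.544 CPM in oeALKBH5 and 6.74 ± 0.683 CPM in control (0.92, SE 0.103, adjusted p = 6.61e-07). SPARC, a matricellular protein gene, was the one that fell (-0.21), a call lost on FPKM (limma adjusted p = 0.112), with library size alone (adjusted p = 0.0940), without oeALKBH5 replicate 2 (0.0611) and without control replicate 1 (0.0683). N-cadherin, CDH2, looked up after its value was seen, was slightly higher (0.12, SE 0.0437, adjusted p = 0.0383), a call lost without a filter (0.0697), without oeALKBH5 replicate 2 (0.0706) and without each control library in turn (0.0933 to 0.142). COL1A1 and COL1A2 are also fibroblast and stellate markers: of 7 tested in that list those 2 rose and LUM fell, and the summed level of its 8 measured genes was 32.7 to 33.5 CPM in oeALKBH5 and 26.1 to 27.4 CPM in control libraries. The fall of LUM was lost with DESeq2 (adjusted p = 0.0827) and without control replicate 1 (0.0732) or oeALKBH5 replicate 2 (0.0507). The part of these markers in the result was not tested.

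Of 10 further EMT transcription factors tested 3 rose and 1 fell, with a median log2 fold change of 0.14; with library size alone 4 rose and 0 fell. SOX9 had 116 ± 11.2 CPM in oeALKBH5 and 93.8 ± 1.29 CPM in control (log2 fold change 0.30, SE 0.0598, edgeR adjusted p = 5.48e-04), SOX4 rose by 0.22 and TCF3, named after its value was seen, by 0.19. FOXQ1 fell (-0.22), a call lost with library size alone (adjusted p = 0.0519) and on FPKM (limma adjusted p = 0.0604). Of 13 epithelial transcription factors tested 7 fell and 0 rose, with a median of -0.23; with library size alone 5 fell and 1 rose. OVOL2, a repressor of ZEB1, had 0.797 ± 0.157 CPM in oeALKBH5 and 1.79 ± 0.232 CPM in control (-1.16, SE 0.258, adjusted p = 0.00116).

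The corepressors and turnover enzymes of Snail and ZEB had 7 of 21 tested higher and 2 lower, with a median of 0.03; under library size scaling the counts were 8 and 0. LOXL2, a lysyl oxidase known to act with Snail, had 15.1 ± 1.54 CPM in oeALKBH5 and 5.03 ± 0.749 CPM in control (log2 fold change 1.58, SE 0.117, edgeR adjusted p = 2.21e-09). CTBP2, a corepressor bound by ZEB1, rose by 0.50 (SE 0.0969, adjusted p = 3.50e-04). The kinase gene PAK1 (-0.21) and the deacetylase gene HDAC1 (-0.13) fell, and both calls were lost with library size alone (adjusted p = 0.0738 and 0.386) and on FPKM (limma adjusted p = 0.0561 and 0.287). PAK1 also lost its call without control replicate 2 (0.0567), and HDAC1 with upper quartile scaling (0.0570), without oeALKBH5 replicate 2 (0.117) and without each control library in turn (0.0673 to 0.0919).

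Splicing regulators other than the ESRPs also passed in both directions, 10 of 25 tested higher and 4 lower, with a median of 0.02; with library size alone 10 were higher and 2 lower, with a median of 0.098. The muscleblind gene MBNL3, whose protein sets alternative exons, had 234 ± 5.70 CPM in oeALKBH5 and 186 ± 2.30 CPM in control (log2 fold change 0.33, SE 0.0442, edgeR adjusted p = 6.75e-06). Its relative MBNL2 had 57.1 ± 4.89 CPM in oeALKBH5 and 44.2 ± 1.12 CPM in control. HNRNPM, which competes with ESRP1 at CD44 exons, had 313 ± 30.9 CPM in oeALKBH5 and 389 ± 5.94 CPM in control (-0.31, SE 0.0574, adjusted p = 2.92e-04), and HNRNPA1 fell by 0.24 on the log2 scale. RBFOX2, which promotes mesenchymal exons, did not pass (-0.10, adjusted p = 0.0874), and QKI, another RNA-binding regulator of EMT exons, rose by 0.19; both were looked up after their values were seen.

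The other transcripts known to be spliced by ESRP proteins or in EMT gave no call of usage. In 17 of the 18 genes at least 2 transcripts could be tested, 147 in all, of which 0 passed by edgeR and 4 had an unadjusted p under 0.05. TCF7L2 and RALGPS2 were among the genes with the smallest usage p. RALGPS2 encodes an exchange factor for Ral GTPases, and its NM_152663.5 took 0%, 19.9% and 10.4% of the gene's FPKM in oeALKBH5 libraries, against 18.3%, 55.0% and 47.3% in control libraries. The groups overlapped, since oeALKBH5 replicate 2 lay above control replicate 1. At the gene level 4 of these 18 genes rose and 1 fell, with a median of 0.04; under library size scaling the counts were 7 and 0. CSF1 had 71.5 ± 3.95 CPM in oeALKBH5 and 42.2 ± 2.34 CPM in control (log2 fold change 0.76, SE 0.0589, edgeR adjusted p = 4.18e-09), and FGFR1 rose by 0.31. ITGA6 fell (-0.14), a call lost on FPKM (limma adjusted p = 0.296), with library size alone (adjusted p = 0.304) and without control replicate 2 (0.0754) or 3 (0.0689).

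Around CD44, 7 of 16 tested ligands, anchors and sheddases rose and 2 fell, with a median of 0.09. With library size alone 7 rose and 1 fell, with a median of 0.17. MMP14, a membrane protease that sheds CD44, had 239 ± 13.3 CPM in oeALKBH5 and 169 ± 3.25 CPM in control (log2 fold change 0.50, SE 0.0485, edgeR adjusted p = 8.67e-08). SPP1, the CD44 ligand osteopontin, rose by 0.55. SLC7A11, the cystine transporter stabilised by variant CD44, had 22.8 ± 2.52 CPM in oeALKBH5 and 32.5 ± 1.01 CPM in control (-0.51, SE 0.0751, adjusted p = 1.93e-05). MET fell (-0.15), a call lost on FPKM (limma adjusted p = 0.318), with library size alone (adjusted p = 0.236), without oeALKBH5 replicate 3 (0.0543) and without control replicate 2 (0.0679).

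Around fibronectin, 5 of 15 tested receptors and assembly genes rose and 2 fell, with a median of 0.08. With library size alone 7 rose and 2 fell, with a median of 0.16. The integrin subunit gene ITGAV had 319 ± 21.0 CPM in oeALKBH5 and 196 ± 8.57 CPM in control (log2 fold change 0.70, SE 0.0519, edgeR adjusted p = 2.25e-09), and the syndecan gene SDC2 rose by 0.23. FBLN1, a fibronectin-binding fibulin, had 287 ± 15.5 CPM in oeALKBH5 and 400.0 ± 20.4 CPM in control (-0.48, SE 0.0506, adjusted p = 3.08e-07), and the crosslinking enzyme gene TGM2 fell by 0.43 on the log2 scale. ITGA5 stands both in this list and among the mesenchymal markers.

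**Figure D5:**
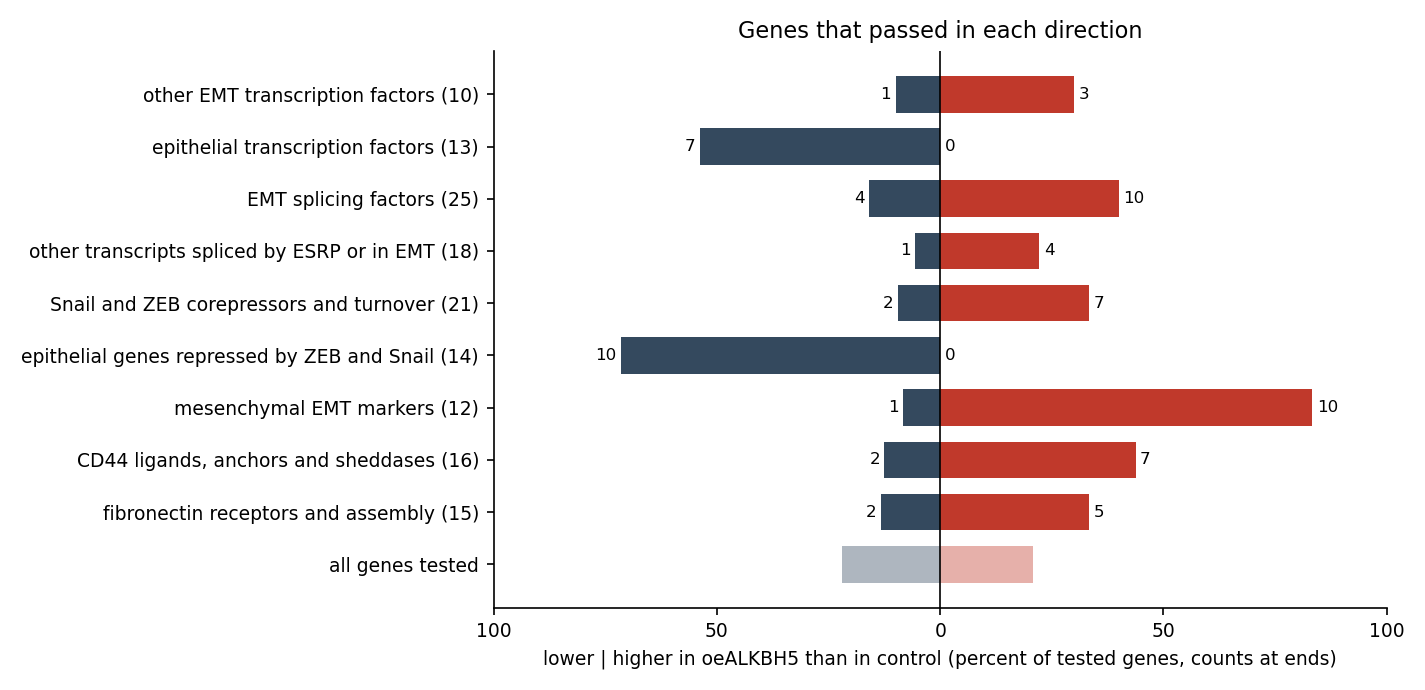
Percentage of tested genes in each list that passed edgeR's test higher (right, red) and lower (left, dark blue) in oeALKBH5 than in control, with counts at the bar ends, the number tested in brackets and all tested genes in the palest bars. The mesenchymal markers (10 higher, 1 lower) and the epithelial genes repressed by ZEB and Snail (0 higher, 10 lower) had the most unequal counts.

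Markers of other cell types were counted as well. Of 5 endothelial markers 4 had under 10 counts in every library, and the other, PECAM1, fell. Of the leukocyte markers 4 were tested and 0 passed, with LYZ the most abundant at 231 CPM in oeALKBH5 and 203.8 CPM in control.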

How the data were processed

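The deposited tables held estimated counts per RefSeq transcript and FPKM values for the same transcripts, both made by the authors. The submitters' processing notes name the build GRCh38.p13, RSEM 1.2.8, Bowtie2 2.2.5 and HISAT2 2.1.0, and the sources used here do not give their roles, the filters or the strand setting. Transcripts were summed by Entrez identifier and the deposited estimated counts rounded to whole numbers. A symbol was matched for 17881 of 18030 genes, and the rest held 0.0264% of counts. No library pair agreed within counting noise.

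Genes and transcripts were tested with edgeR 4.0.16 (R 4.3.3): TMM scaling, filter at a minimum count of 10, robust quasi-likelihood fit, two-sided, Benjamini-Hochberg over all features tested, adjusted p under 0.05. SE was derived from the log2 fold change and the F statistic. CPM uses TMM-scaled sizes. The authors' FPKM was tested as log2(FPKM + 1) with limma 3.58.1 (FPKM of at least 1 in 3 libraries), which understates changes of low genes. Usage was tested with edgeR's diffSpliceDGE, which sets each transcript against its gene's total over the tested transcripts; the planned wording was against the other transcripts, as limma's diffSplice does. Shares are of summed FPKM, with an exact two-sided permutation test.

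Exon content came from GENCODE release 29 transcripts paired there with the RefSeq accession, for 6 CD44 and 8 FN1 transcripts. Versions were ignored: GENCODE pairs all 6 CD44 accessions and NM_212482 with an older version, which may differ from the deposited one. Several CD44 models in GENCODE are incomplete at their ends; full-length here means at least 8 exons in CD44 and 40 in FN1.

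The members and lists were chosen with earlier results of these data known. The text names all members, CD44 and FN1 transcripts of at least 5% in either group, up to 2 genes per list and direction by smallest p, and 3 list genes by usage p; others are marked as seen first. Some genes that this rule names are not reported here. The scripts were tested on simulated data. Alternatives were DESeq2 1.42.0, limma-voom, other scalings and filters, a pseudocount of 0.1, the replicate block and leaving out each library. Figures were drawn with matplotlib 3.10.9.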

Additional observations from a re-analysis of the deposited data

How the results depend on the processing

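The rises of ZEB1 and CD44 passed in all 14 alternatives to the count test and in all 9 to the FPKM test, with log2 fold changes of 0.33 to 0.47 for ZEB1 and 0.24 to 0.40 for CD44 in counts. The number of the 10 EMT genes that passed in counts ran from 2 to 4 with 1 library left out at a time: without oeALKBH5 replicate 1 ESRP1 and ESRP2 were added, and without control replicate 2 ESRP1. It was 3 under library size scaling, where FN1 was added. On FPKM it was 2 or 3, as FN1 passed or not. ESRP1, ESRP2 and FN1 kept their sign in every alternative in counts. The call of CD44 and FN1 transcripts by level was 0 in all settings but 1: DESeq2 called 1, FN1 XM_017003695.1. By usage it ran from 0 to 1 with a library left out, where FN1 NM_001306132.1 was called without oeALKBH5 replicate 1 or without control replicate 2, and XM_005246398.1 without control replicate 1. The cause of these differences was not tested.

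Values near 0 changed sign. SNAI1 was 0.024 under library size scaling in place of -0.06, and ran from -0.12 to 0.025 with a library left out, or from -0.038 to 0.10 on FPKM; ESRP2 on FPKM ran from -0.091 to 0.055. Of the 19 named transcripts tested by level, 12 changed sign in an alternative, none of them called in any. Under library size scaling XM_005253238.3 was at 0.059, NM_001306129.1 at 0.051, XM_005246402.1 at 0.069 and XM_024452769.1 at 0.021. With a library left out, the CD44 log2 fold changes ran from -0.21 to 0.78 for NM_001202555.2, from -0.33 to 0.31 for XM_005253238.3, from -1.63 to 0.12 for XM_006718390.4 and from -0.13 to 0.44 for XM_011520486.2. Those of FN1 ran from -0.081 to 0.037 for NM_001306129.1, from -0.048 to 0.10 for NM_002026.3, from -0.21 to 0.00999 for NM_212482.3 and from -0.19 to 0.14 for XM_005246397.1. They ran from -0.028 to 0.20 for XM_005246399.1, from -0.024 to 0.0018 for XM_005246402.1, from -0.020 to 0.080 for XM_017003692.1 and from -0.098 to 0.0060 for XM_024452769.1.

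Replicate numbers were not treated as pairs in the main tests. Same-numbered libraries correlated at 0.0171, 0.0232 and 0.0127 in their deviations from the group means, under the 0.1 set for pairing. Each library still correlated best with its own number. With the replicate number as a block, 2 EMT genes passed in counts and 3 on FPKM, 0 CD44 or FN1 transcripts passed by level or usage, and NM_001202555.2 was at -0.57. ALKBH5 itself had an adjusted p of 0.0534 under the block, in place of 0.0154. Over all features the block called 0 transcripts by level, in place of 461, and 10 by usage, in place of 27. It called more genes, 6465 in counts in place of 6062, and 5824 on FPKM in place of 5512. The median SE of genes in counts was 0.0663 under the block, in place of 0.0719.

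Transcript calls as a whole depended on the tool: DESeq2 called 4053 by level, limma's diffSplice 189 by usage, and leaving out a library 7 to 160 by level and 12 to 24 by usage. CD44 drew 579 to 846 counts per library over 16 transcripts; the part of depth and of the division of reads among isoforms in the scatter of its shares was not tested. SNAI2, TWIST1, GRHL2 and ZEB2 are limited by 0 to 17 counts.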
